A study of Mus musculus with 4 samples.

Results

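Methylation was examined in 8 genes of mouse chromosome 17, Uqcc2, Rpusd1, Abca3, Ift140, Neurl1b, Ccnf, Tjap1 and Ttbk1, in which single CpG cytosines differed in methylation between livers of the mixed-background mice and of the B6 mice. A cytosine was selected on its strain means: it was kept if the mean methylation of the Mixed mice and the mean of the B6 mice lay 25 percentage points or more apart, a gap written here as Mixed minus B6. Of 831 cytosines that were covered in all 4 mice in the bodies of these genes and 2 kb on each side, 25 met this rule, at 22 CpGs. Across the genome 4758 of 1276684 common cytosines met it (0.373%), and of the 1405 RefSeq genes of chromosome 17 with a common cytosine in the same limits, 194 held at least 1. Because these genes were chosen by the strain difference itself, the gaps below are a description of the 4 livers and carry no test between the strains.

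Enhanced reduced representation bisulfite sequencing (ERRBS) was performed on liver DNA of 4 male mice aged 6 to 8 weeks on a normal diet. Mixed-1 and Mixed-2 had an undefined background that includes C57BL/6J and other strains, and B6-1 and B6-2 were C57BL/6. The strains were kept at different institutions, so background and housing cannot be told apart, and each strain had 2 mice, each profiled once. The reads over all cytosines with a coverage of 10 or more summed to 60654199 and 65176203 in the Mixed mice and to 99215153 and 91886997 in the B6 mice, in the order of their numbers, and the median coverage of a common cytosine was 41, 45, 64 and 60. The tissue label could be checked only weakly, because 3 of 10 hepatocyte genes and 5 of 11 genes of other liver cells had common cytosines within 1 kb of their start. Across the mice, the median methylation of these starts was 28.4% to 34.3% in the hepatocyte genes and 2.53% to 5.73% in the others. The others were split. Sox9, Krt19 and Lrat lay between 0.462% and 5.73%, whereas Pecam1 lay at 77.4% to 100% and Col1a1 at 65.8% to 85.7%, each with 1 common cytosine. With so few genes and no other tissue to compare, the check neither bears out the label nor goes against it.

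In mammalian DNA most CpGs carry a methyl group on the cytosines of both strands, whereas dense clusters of CpGs at gene starts usually carry none. CpGs inside introns and inner exons are mostly methylated in every tissue, and neighbouring CpGs on one molecule tend to share their state. ERRBS cuts DNA at the sequence CCGG and reads inward from the cut ends, so each strand of a CpG is read on its own. A methylated cytosine is read as C and an unmethylated one as T, and a T that is already in the DNA is read in the same way as an unmethylated cytosine.

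The surroundings of the cytosine with the largest gap of each gene are printed here in mm10 on the plus strand, so that a reader can see the CpG that each set of values belongs to. Capitals mark its CpG. Strand F means that the measured cytosine is the capital C, and strand R that it lies on the minus strand, opposite the capital G. The Tjap1 stretch is shorter because it lies in an untranslated exon.
Uqcc2, strand F, chr17:27132603-27132663: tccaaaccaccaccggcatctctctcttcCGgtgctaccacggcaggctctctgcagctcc
Rpusd1, strand F, chr17:25730241-25730301: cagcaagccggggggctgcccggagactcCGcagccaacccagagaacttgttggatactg
Abca3, strand F, chr17:24408655-24408715: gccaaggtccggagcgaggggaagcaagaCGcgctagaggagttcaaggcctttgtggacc
Ift140, strand R, chr17:25090790-25090850: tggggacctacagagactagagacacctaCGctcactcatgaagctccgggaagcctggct
Neurl1b, strand R, chr17:26437224-26437284: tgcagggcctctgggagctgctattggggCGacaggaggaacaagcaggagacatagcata
Ccnf, strand F, chr17:24239770-24239830: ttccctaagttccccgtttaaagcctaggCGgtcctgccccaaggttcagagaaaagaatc
Tjap1, strand F, chr17:46282985-46283014: cagccatcttgccgCGgggcaggccgggta
Ttbk1, strand R, chr17:46468045-46468105: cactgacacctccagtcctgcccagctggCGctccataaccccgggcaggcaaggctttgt

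The 25 cytosines fell into 3 kinds. The first kind comprised 10 cytosines of 6 genes that were methylated in B6 and close to 0% in both Mixed mice, with gaps from -95.9 to -80.9 points. The second was a stretch of 6 cytosines at the start of Tjap1 that were at or near 0% in B6 and between 29.4% and 57.1% in Mixed. The remaining 9 had gaps between -62.0 and 60.5 points. In total 12 of the 25 were lower in Mixed, where 0.186% of all common cytosines met the rule in that direction, and 13 were higher. The values of both Mixed mice lay on the same side of both B6 mice at all 25, while 16.6% of all common cytosines had such non-overlapping strains. The rule nearly fixes this, since 4309 of the 4758 cytosines with a gap in the genome had it too, and nothing is read from it.

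**Figure D1:**
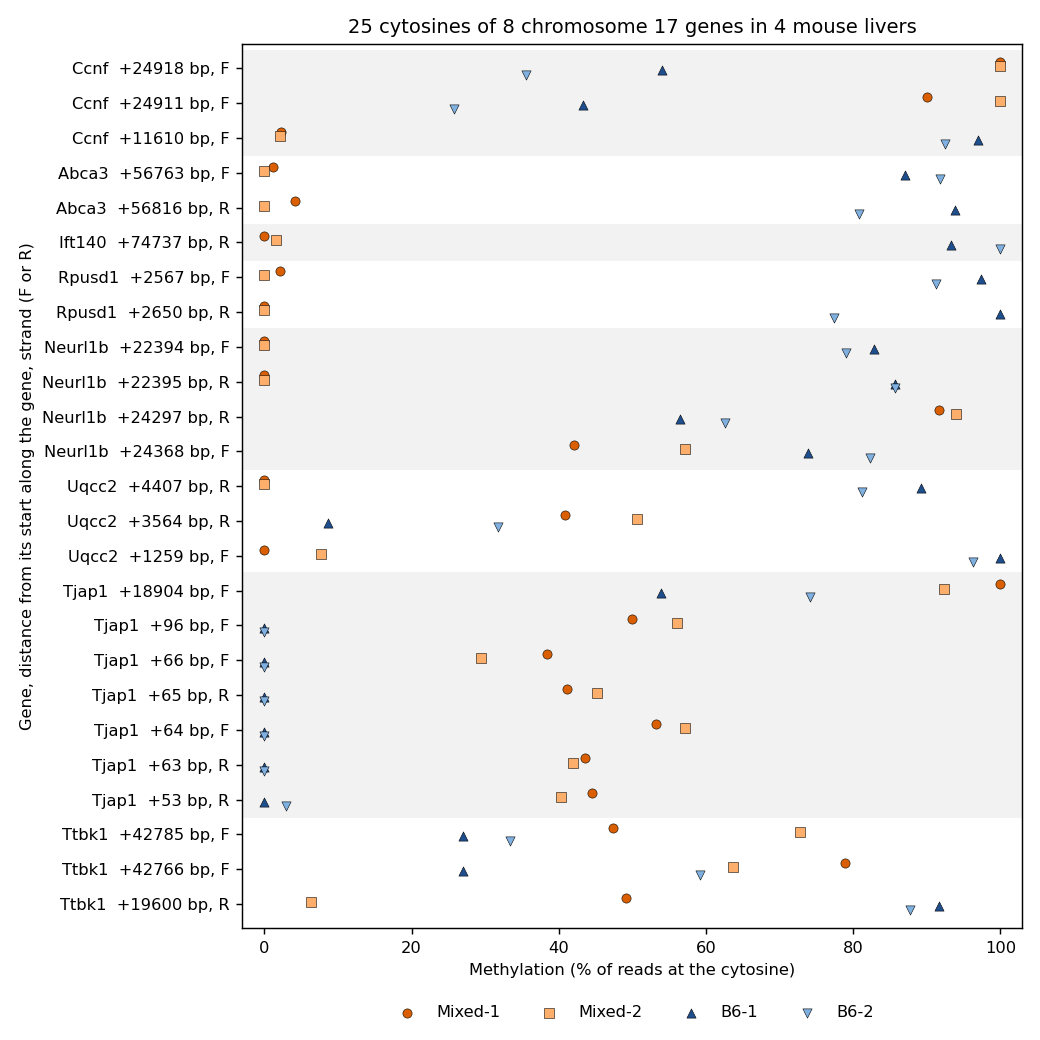
Methylation of each of the 25 cytosines (horizontal axis, percent of reads) in the 4 mice, with 1 row for each cytosine named by gene, distance from the gene start and strand. The 10 cytosines with Mixed values between 0% and 7.69% sit far from their B6 values of 77.4% to 100%, and the 6 Tjap1 cytosines 53 to 96 bp from the start show the opposite order.

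Uqcc2 encodes an assembly factor of mitochondrial respiratory complex III (chr17:27122665-27133891, minus strand). It had 26 common cytosines and 3 with a gap, all in introns. The cytosine at 27132632, 1259 bp from the gene start, was 0% methylated in Mixed-1 (11 reads) and 7.69% in Mixed-2 (13 reads), against 100% in B6-1 (57 reads) and 96.2% in B6-2 (53 reads), a gap of -94.3 points. Both Mixed mice were low and both B6 mice high, although the Mixed values rest on few reads: the 95% Wilson interval reached 25.9% in Mixed-1 and 33.3% in Mixed-2, and began at 93.7% in B6-1 and 87.2% in B6-2. Such intervals cover counting error only, since amplified reads are not independent molecules. Its neighbour 11 bp further on was 100% in both Mixed mice, 100% in B6-1 and 84.7% in B6-2, so it did not share the low Mixed values.

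By the reference, this Uqcc2 cytosine lies in a CCGG and is the first base of its reads, though where each mouse's reads began is not known. Coverage there, taken relative to the median of each library, was 0.314 times as high in Mixed as in B6, the lowest of the 25. In the 18 bp reference fragment that ends at this CCGG, a cytosine 16 bp away at 27132616 was 100% methylated in both Mixed mice, with 11 and 12 reads, and reached 10 reads in neither B6 mouse. A second Uqcc2 cytosine, at 27129484 on strand R, was at 0% in both Mixed mice (32 and 48 reads) and at 89.2% and 81.2% in B6-1 and B6-2. A count of 0 in 32 reads allows a share of up to 9.38%, 3 reads of the total. Its 6 neighbours within 100 bp had gaps of at most 19.5 points, all of them higher in Mixed. The third, at 27130327, went the other way, with 40.8% and 50.7% in Mixed against 8.62% and 31.7% in B6.

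Rpusd1, which encodes a protein with an RNA pseudouridine synthase domain, is a short gene (chr17:25727703-25731464, plus strand), and 2 of its 4 common cytosines had a gap. The cytosine at 25730270, in an intron 2567 bp from the start, was 2.17% and 0% methylated in the Mixed mice (46 and 95 reads) and 97.4% and 91.3% methylated in the B6 mice (77 and 80 reads). The other, at 25730353 on strand R, was 0% in both Mixed mice and 100% and 77.4% in B6-1 and B6-2. These cytosines lie 83 bp apart at opposite ends of a 112 bp fragment. The pair of Rpusd1 cytosines without a gap lie on the same fragment and averaged 96.7% and 97.3% in the Mixed mice and 93.2% and 97.7% in the B6 mice. Both ends of the fragment thus carried 1 cytosine near 0% in Mixed beside 1 that was nearly fully methylated.

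Abca3 encodes a lipid transporter that loads surfactant lipids into the lamellar bodies of lung cells (chr17:24351921-24410204, plus strand). Of its 92 common cytosines 2 had a gap, both near the 3' end. The cytosine at 24408684, in a coding exon, was 1.22% methylated in Mixed-1 (82 reads), 0% in Mixed-2 (89 reads), 87.1% in B6-1 (124 reads) and 91.7% in B6-2 (109 reads). At 2 bp from it, the next cytosine on the same strand was 87.7% and 89.9% methylated in the Mixed mice and 91.2% and 89.8% in the B6 mice. These 2 cytosines are read from the same end of the fragment at nearly the same coverage, and only the first was low in Mixed. The other Abca3 cytosine, at 24408737 on strand R in the adjoining intron, was 4.17% and 0% in Mixed and 93.8% and 80.8% in B6, and lay on the same 85 bp fragment.

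Ift140 encodes a subunit of the intraflagellar transport complex that carries cargo back from the tip of the cilium (chr17:25016083-25099499, plus strand). Its single cytosine with a gap, of 95 common ones, had the largest gap of all 25, at -95.9 points. It lies in an intron at 25090820 on strand R, 74737 bp from the start, and was 0% methylated in Mixed-1 (39 reads), 1.52% in Mixed-2 (66 reads), 93.3% in B6-1 (60 reads) and 100% in B6-2 (66 reads). The neighbour 18 bp away on the same strand was between 93.9% and 100% in the 4 mice.

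Neurl1b and Ccnf both belong to ubiquitin ligases. Neurl1b is a ligase that acts on Notch ligands (chr17:26414859-26446321, plus strand), and 4 of its 213 common cytosines had a gap. It held the only CpG of the first kind that was measured on both strands. In an intron, 22394 bp from the start, the strand F cytosine at 26437253 was 0% methylated in both Mixed mice (82 and 58 reads) and 82.8% and 79.1% in B6-1 and B6-2. Its partner at 26437254 on strand R was also 0% in both Mixed mice (46 and 55 reads) and 85.7% in each B6 mouse. Both strands thus gave the same picture, and the next cytosine, 46 bp on, was 97.9% and 96.3% in Mixed and 89.5% and 91.2% in B6.

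The other Neurl1b cytosines lay in a coding exon with 30 CpGs within 100 bp of each of them. The cytosine at 26439156 was 91.7% and 93.9% in Mixed and 56.5% and 62.6% in B6, and the one at 26439227 was 42.0% and 57.1% in Mixed and 73.8% and 82.4% in B6. These lie 71 bp apart and differed in opposite directions. The opposite strand of 26439227 had no gap, at 58.9% and 53.7% in Mixed and 48.3% and 50.0% in B6. Of 32 other cytosines within 100 bp of 26439227, 1 had a gap.

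Ccnf encodes cyclin F, the substrate receptor of an SCF ubiquitin ligase in the cell cycle (chr17:24223230-24251409, minus strand), and 3 of its 77 common cytosines had a gap. The intronic cytosine at 24239799 was 2.27% and 2.08% methylated in Mixed-1 and Mixed-2 (44 and 48 reads) and 97.0% and 92.5% in B6-1 and B6-2 (66 and 80 reads). On the same strand 15 bp before it, a cytosine was at 95.7%, 89.1%, 97.1% and 93.8% in the same order of mice. Near the 3' end, in a coding exon, a pair of cytosines 7 bp apart on the same reads went the other way. At 24226491 methylation was 100% in both Mixed mice (10 and 13 reads) against 54.1% and 35.5% in B6 (37 and 31 reads), and at 24226498 it was 90% and 100% against 43.2% and 25.8%. The coverage of both relative to the library median was 0.487 times as high in Mixed as in B6.

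The 10 cytosines of the first kind were grouped by drops of 80 points or more, which need a B6 mean of at least 80%. Only methylated places could qualify. The position and surroundings of these cytosines thus follow in part from the selection, and nothing is read from either. These 10 lay in introns except for 1 in a coding exon of Abca3, and had between 4 and 9 CpGs within 100 bp. Of 31 common cytosines within 100 bp of any of them, 6 had a gap, which were the pairs in Abca3, Rpusd1 and Neurl1b, and 25 had none. The absence of a gap limits these 25 to differences under 25 points, and within that limit their absolute gaps ranged from 0.221 to 19.5 points, with a median methylation of 92.1% in Mixed and 92.4% in B6. Of the 25 cytosines with a gap, 17 had an opposite strand that was in none of the 4 files. An opposite strand outside the common set is not particular to these 17. The 1276684 common cytosines lay at 1024690 CpGs, so most had an opposite strand outside the common set. The share with an opposite strand in none of the 4 files was not counted for all common cytosines. Reads with a base other than C or T occurred at only 0.524% to 0.809% of a library's cytosines with 10 reads or more. The 10 of the first kind had none. Their coverage relative to the library median, Mixed over B6, ranged from 0.314 to 1.27, with a median of 1.03.

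**Figure D2:**
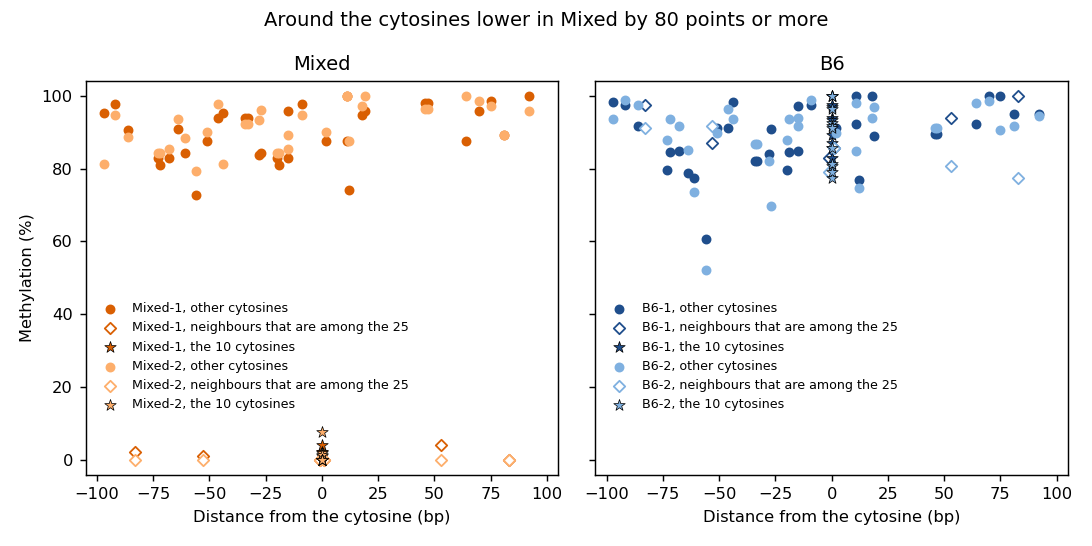
Methylation (vertical axis, percent) of the 10 cytosines lower in Mixed by 80 points or more, drawn at 0 bp, and of all common cytosines up to 100 bp away, with the Mixed mice on the left and the B6 mice on the right. On the left the 10 cytosines sit at 7.69% or less while filled neighbours have a median of 92.1%, and open diamonds near the bottom are neighbours that are themselves among the 25.

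Such complete differences were found mainly on this chromosome. Across the genome 39 common cytosines were under 10% in both Mixed mice and over 75% in both B6 mice, and all 39 lay on chromosome 17, 10 of them in these genes. An absolute gap of 75 points or more was seen at 54 cytosines in the genome, 47 of them on chromosome 17, and 30 RefSeq genes of the chromosome had 1. In bins of 1 Mb, that of Ift140 and Rpusd1 had 8 among 1945 common cytosines, and that of Ccnf and Abca3 had 7 among 2056. Those of Neurl1b and Uqcc2 had 4 among 1812 and 4 among 2154. These counts include cytosines of the chosen genes, so no ranking of bins is read from them. The bin from 18000001 to 19000000, which holds none of these genes, had 2 among 67. Chromosome 17 also had the highest share of cytosines with a gap of 25 points among the autosomes, 0.723% of 58756.

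Tjap1 encodes a protein associated with tight junctions (chr17:46257851-46283063, minus strand), and it was the only gene here in which all cytosines with a gap, 7 of 58, were higher in Mixed. At 46282999, in the untranslated exon 64 bp from the start, methylation was 53.2% in Mixed-1 (47 reads) and 57.1% in Mixed-2 (42 reads), and 0% in B6-1 (32 reads) and B6-2 (28 reads), which allow a share of up to 9.38% and 10.7%. The 6 cytosines between 53 and 96 bp from the start ranged from 38.5% to 53.2% in Mixed-1 and from 29.4% to 57.1% in Mixed-2. In B6-1 all 6 were at 0%, and in B6-2 they were at 0% except 1 at 2.94%. The Mixed mice were thus intermediate along the whole stretch, which is a single fragment of 44 bp, and the strains did not overlap.

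Toward the gene start the difference ended with the fragment. The 8 cytosines of the next fragment toward the start, 38 bp long, were at 0% in all 4 mice. On the other side the next common cytosine was 10185 bp from the start, so no value shows how far the difference reached there. Where the fragments meet, both strands of 1 CpG were read from different fragments: the strand F cytosine at 46283009, on the 38 bp fragment, was at 0% in all 4 mice, and the strand R cytosine at 46283010, on the 44 bp fragment, was at 44.6% and 40.3% in Mixed and 0% and 2.94% in B6. Coverage also differed. At the 6 cytosines it was 1.51 to 3.10 times as high in Mixed as in B6 relative to the library medians, with a median of 2.72, against a median of 1.16 and a range of 0.486 to 1.58 at the other 12 common cytosines within 1000 bp of the start. These ranges overlap: the value was 1.51 at 46282997, which had a gap, and 1.58 at 46283009, which was at 0% in all mice. The part of this coverage in the methylation values was not tested. Each end of the 44 bp fragment, with every C written as T, occurred at 1 place of the reference, also with up to 2 mismatches allowed.

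**Figure D3:**
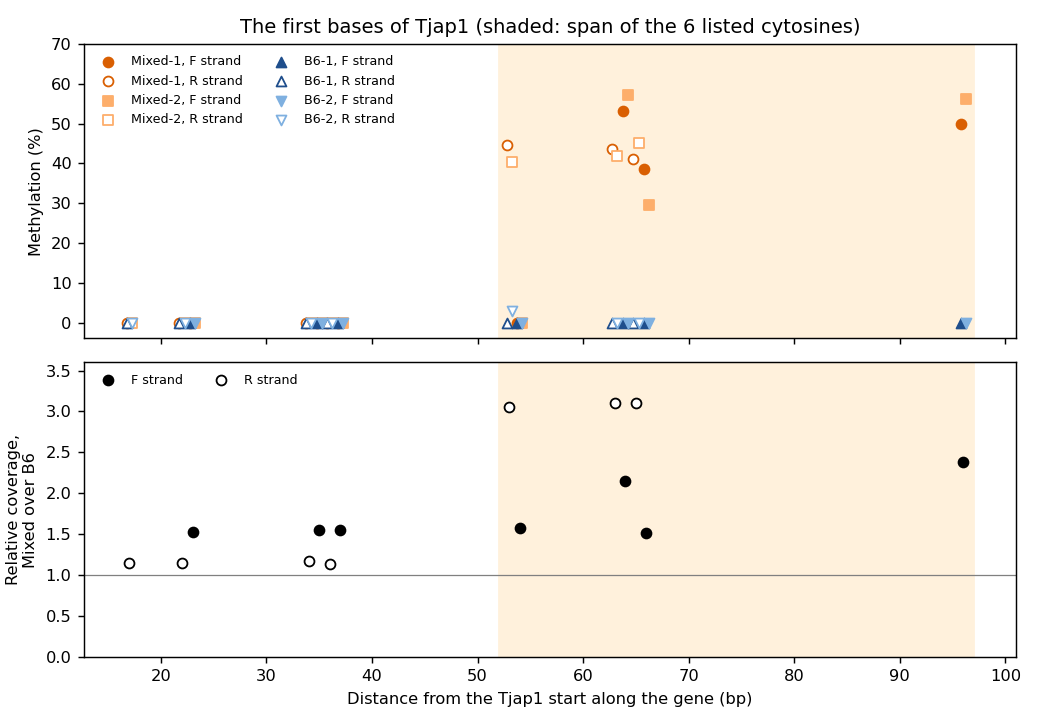
Methylation in each mouse (top, percent) and relative coverage, Mixed over B6 (bottom), at the common cytosines in the first bases of Tjap1 against their distance from its start in bp; filled marks are strand F and open marks strand R. In the shaded span Mixed values of 29.4% to 57.1% stand over B6 values of 0% to 2.94%, and outside it all values are 0%; the 1 cytosine at 0% inside the span is read from the neighbouring fragment.

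The seventh Tjap1 cytosine, at 46264159 in an untranslated exon of predicted transcripts, was 100% and 92.3% methylated in Mixed (10 and 13 reads) and 53.8% and 74.1% in B6 (39 and 27 reads). It had no other common cytosine within 100 bp.

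Ttbk1 encodes a kinase of tau and tubulin that is known from the brain (chr17:46442448-46487675, minus strand), and 3 of its 266 common cytosines had a gap. The intronic cytosine at 46468075 on strand R was 49.2% methylated in Mixed-1 (59 reads), 6.32% in Mixed-2 (95 reads), 91.7% in B6-1 (108 reads) and 87.7% in B6-2 (106 reads). Here the Mixed mice were apart from each other as well as from B6, and the gap of -62.0 points was -40.5 points without Mixed-2 and -83.4 points without Mixed-1. The neighbours 83 bp before and 13 bp after it had gaps of 3.81 and 3.53 points. In the untranslated 3' exon, a pair of cytosines 19 bp apart was higher in Mixed, with 47.4% and 72.7% against 27.0% and 33.3% in B6 at 46444890, and 78.9% and 63.6% against 27.0% and 59.2% at 46444909. The Mixed values of this pair rest on 19 and 11 reads.

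The mice of a strain were then compared with each other. The rule used the strain means of these same values, so this comparison is not independent of it. The largest gaps need strain means near the ends of the scale, where mice of a strain can differ little. A mean of 0%, as in Mixed at Neurl1b 26437254 and in B6 at Tjap1 46282999, fixes both mice at 0%. A low number of calls among the 25 is thus partly set by the selection, and nothing is read from it. A two-sided Fisher's exact test was run on the methylated and unmethylated reads of every common cytosine, and calls needed 25 points of difference and a p under 0.01 after Benjamini-Hochberg adjustment over all of them. Between Mixed-1 and Mixed-2, 1 of the 25 was called, the intronic Ttbk1 cytosine at 46468075, by Fisher's exact test at an adjusted p of 1.29e-06 and a difference of 42.8 points, against 0.0886% of all common cytosines. Between B6-1 and B6-2, 0 of the 25 were called by Fisher's exact test, against 0.0549% of all. An unadjusted p under 0.05 was found for 1 of the 25 between the Mixed mice, against 2.38% of all common cytosines, and for 5 of the 25 between the B6 mice, against 5.97%. The test compares these libraries, 1 mouse a side, and has no replicate check. Of all 4758 cytosines with a gap in the genome, 602 (12.7%) were called between the Mixed mice and 7 (0.147%) between the B6 mice.

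Across all 831 common cytosines of the 8 genes the median absolute gap was 1.13 points, against 0.764 points over all common cytosines of the genome. By gene it was as high as 46.9 points in Rpusd1, where 2 of 4 cytosines had a gap. The rule itself keeps the gaps of the unselected cytosines under 25 points. Outside the 25, the median absolute gap of a gene ranged from 0 points in Ccnf, Abca3 and Ift140 to 3.40 points in Rpusd1, and the means over a gene's unselected cytosines were 19.2% and 19.1% in the Mixed mice and 18.8% and 19.2% in the B6 mice in Ccnf. In Uqcc2 they were 40.7% and 41.5% in the Mixed mice and 37.9% and 35.4% in the B6 mice. Both Mixed mice were above both B6 mice there and in Ift140, Tjap1 and Ttbk1, and below both in Abca3. In Ift140 the means were nearly equal, at 29.27% and 29.74% in Mixed and 29.25% and 29.26% in B6. The share of all genes with non-overlapping means was not counted, so nothing is read from this order. Just outside the rule were Neurl1b 26439180 at -24.7 points and Ttbk1 46444932 at 24.1 points, and just inside it Uqcc2 27130327 at 25.6 points and Ttbk1 46444909 at 28.2 points.

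**Figure D4:**
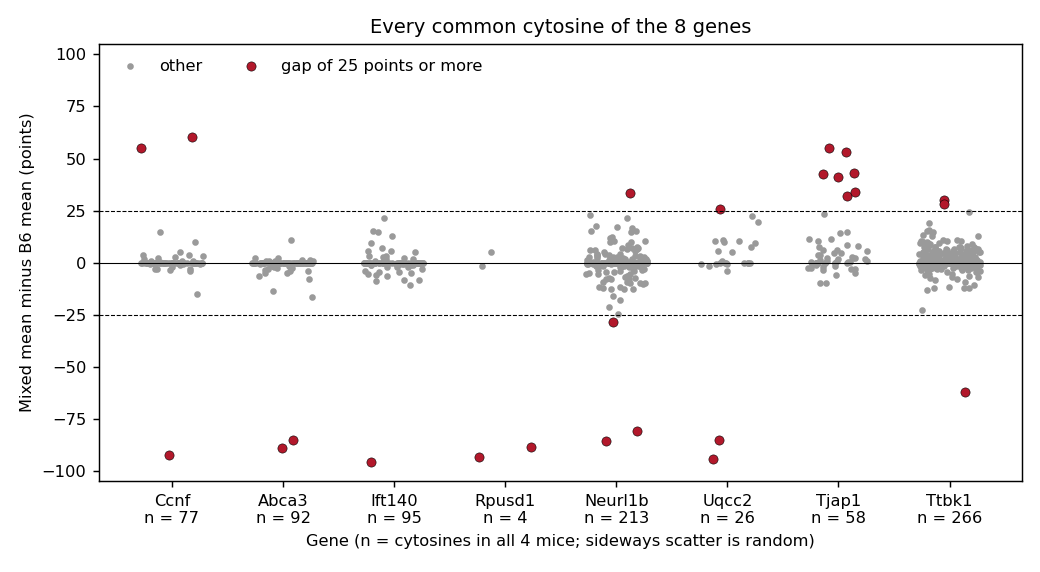
The gap (vertical axis, Mixed mean minus B6 mean, points) of each of the 831 common cytosines, by gene; dashed lines mark 25 points in either direction. Most points lie close to 0, and 10 points in 6 genes lie between -95.9 and -80.9; the next lowest is the Ttbk1 intron at -62.0.

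By annotation, 11 of the 25 lay in introns, which held 248 of the 831 common cytosines, and 10 of these were lower in Mixed. The 9 in untranslated exons were all higher in Mixed, but 6 of them share the Tjap1 start fragment and 2 are the neighbouring Ttbk1 pair. Untranslated exons held 129 of the 831, and 56 more lay in those of predicted transcripts. Coding exons held 231, of which 3 had a gap higher in Mixed and 2 a gap lower in Mixed, and the flanks held 167, with 0 of the 25. Coverage was under 20 reads in at least 1 mouse at 6 of the 25, namely both 3' Ccnf cytosines, Uqcc2 27132632, Tjap1 46264159 and the 3' pair of Ttbk1. At these 6 the Mixed libraries were the shallow ones, and a count of 0 in 10 reads would allow a share of up to 30%. Cytosines with a gap occurred beside each other mostly in Tjap1. Neighbours within 100 bp were counted from each of the 25 in turn, so 2 neighbours that both had a gap were counted from each side. Of these neighbours 42 of 191 (22.0%) had a gap, and 12 of 113 (10.6%) without the Tjap1 start fragment. The same count from all cytosines with a gap in the genome gave 10.3% of 24236.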

How the data were processed

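Liver genomic DNA was digested with MspI, size-selected to 70 to 320 bp, treated with bisulfite and sequenced. The paper's discussion describes ERRBS as pairing TaqαI with MspI, whereas the fragments here were taken from MspI sites alone. The labels' processing notes name Bismark, SAMtools and mm10, and the methods name BSMAP. The authors deposited, for each mouse, the coverage as a count of reads at each CpG cytosine and strand, with a minimum of 10, and the percent of these reads that were C and that were T. Every deposited cytosine had over 90% C and T reads, so a cytosine read mainly as another base is not in the files. ERRBS does not separate 5-methylcytosine from 5-hydroxymethylcytosine.

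Methylated reads were the percent times the coverage. Cytosines were joined by position and strand, and RefSeq mm10 genes, extended by 2 kb, gave the members. Sequences and annotation came from the RefSeq copy of mm10. All 8 genes are described, with the cytosine of largest gap in full. Members and lists were chosen with earlier results of these data known. MspI fragments were read from the reference, and for all 19 ends of the fragments with a gap, the first 44 to 50 bases with C written as T occurred at 1 place of the 22 chromosome sequences. Mice of a strain were compared with Fisher's exact test. On simulated data with 200 of 100000 cytosines changed by 50 points between Mixed-1 and Mixed-2, the test recovered 65.0% of them, 90.6% of the 127 with at least 30 reads, and called 0 unchanged. The simulated reads held counting error only, and p was adjusted over the 100000, so these rates need not hold for the real libraries. Python 3.11.15, numpy 2.4.6, pandas 2.3.3, scipy 1.17.1, numba 0.67.0 and matplotlib 3.10.9 were used. Alternatives tried were merged strands, a ceiling on coverage, a higher minimum, pooled reads, C and T reads only, other gaps, flanks and distances, other call rules within a strain, and leaving out each mouse.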

Additional observations from a re-analysis of the deposited data

Results flagged for a closer look

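Cytosines outside the common set were not used in the comparisons, and some of them carried reads in the Mixed mice alone. In the 8 genes, 18 cytosines (1.70% of 1057 covered in any mouse) reached 10 reads in both Mixed mice and in neither B6 mouse, against 1.05% on chromosome 17 and 0.211% in the genome, although the Mixed libraries were the shallower ones. Ttbk1 held 6 of them, Abca3 4, Ccnf 3, Ift140 3, Neurl1b 1 and Uqcc2 1. By the reference, 16 of the 18 lay on MspI fragments longer than the 320 bp limit of the size selection and 2 on fragments shorter than 70 bp, whereas 0 of the 831 common cytosines lay on a fragment over 320 bp and 279 on one under 70 bp. In chromosome 17 as a whole, 463 of 798 such cytosines lay on a fragment over 320 bp (58.0%), against 0.710% of the common ones. In Ttbk1 all 6 lay on a single 554 bp reference fragment and were 78.8% to 100% methylated in the Mixed mice. This fragment adjoins the one that holds the Ttbk1 cytosine at 46468075, which was 49.2% methylated in Mixed-1 and 6.32% in Mixed-2. In the opposite direction, 110 cytosines (10.4%) were read in both B6 mice and neither Mixed mouse, against 7.75% in the genome. The cause was not tested.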

How the results depend on the processing

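The number of cytosines with a gap, 25, was between 27 and 30 when any 1 mouse was left out, the number lower in Mixed between 13 and 14, and the share of neighbours with a gap between 19.4% and 21.8%. With 1 mouse left out, the share of all common cytosines with a gap rose from 0.373% to between 0.723% and 0.869%. That share was 0.220% at a coverage of at least 20, 0.918% at a gap of 20 points and 0.0209% at a gap of 50 points. At 50 points, 15 cytosines of the 8 genes and 14.3% of their neighbours had a gap. Without a test, 2 of the 25 differed by 25 points between the Mixed mice, against 1.28% of all common cytosines, and 1 between the B6 mice, against 1.06%. The other 52 of 63 alternative values of these counts and shares stayed within 1.5 times. The largest gap of each gene kept its direction in all 72 alternative values, and 67 moved by no more than 1 SD. These include Ttbk1, whose SD is wide and whose gap of -62.0 points was -40.5 without Mixed-2 and -83.4 without Mixed-1. The other 5 were Uqcc2 at -85.2 points with a coverage of at least 20, which removes its cytosine with few Mixed reads, Neurl1b at -82.8 and Tjap1 at 53.0 with strands merged, and Abca3 at -91.8 and Rpusd1 at -100 points without B6-2. No paired analysis was possible because the strain comparison carries no test here and each comparison within a strain has 1 mouse a side. With 2 mice per strain, and background and housing confounded, the values describe these livers. The low Mixed values of Uqcc2 27132632 rest on 11 and 13 reads.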
